A study of Mus musculus with 25 samples.

Results

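Thalidomide (TMD) was set against permethrin (PMT) and cyclopamine (CPM), the chemicals of the study that were given to mouse embryonic stem cells (mESCs) at the same doses. The TMD arrays were chosen by their sample titles and number 2 of 25, 1 at 100 nM and 1 at 0.01 mM. The 4 arrays of PMT and CPM, each chemical at 100 nM and at 0.01 mM, were the other side of the comparison. Across the arrays, 1 probe of 1 gene passed the test, a probe for serglycin (Srgn) that was lower after TMD, and the other Srgn probe of the array did not share the difference.

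In the whole study 12 chemicals, at a low and a high dose, acted for 48 h on differentiating mESCs, and a control received 0.1% of the solvent dimethyl sulfoxide (DMSO), with 1 Illumina Mouse WG-6 array per condition. Exposure began when leukemia inhibitory factor was withdrawn, as the cells left self-renewal and aggregated into embryoid bodies (EBs). All samples share the C57BL/6 background and came from 1 line of mESCs, B6G-2, which expresses green fluorescent protein constantly and had been grown on fibroblast feeders. No condition has another array, so the p-values rest on how far the low and high dose of each chemical lay apart. For each probe this spread was pooled over the 12 chemicals and drawn towards that of probes of similar signal. This spread contains any effect of dose, and with 1 line it says nothing of other lines.

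These chemicals have known and different targets. Thalidomide, a former sedative that causes limb defects in humans but much less so in mice, binds cereblon (Crbn). Cereblon is the substrate receptor of a ubiquitin ligase built on Ddb1, a cullin (Cul4a or Cul4b) and Rbx1, and in human cells the drug redirects the ligase to zinc finger proteins such as IKZF1, IKZF3 and SALL4. Permethrin, a pyrethroid insecticide, slows the closing of voltage-gated sodium channels. Cyclopamine, a plant alkaloid, binds Smo, the membrane protein that passes the hedgehog signal on from the receptor Ptch1 to the Gli factors. Serglycin is a small core protein that carries sulfated glycosaminoglycan chains, packs the granules of blood cells, and was first cloned from a rat yolk sac tumor.

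Serglycin is the gene of the only called probe, so the promoter windows of its annotated starts are printed first. RefSeq gives it 2 start sites on the minus strand of mouse chromosome 10, 19.7 kb apart in the build GRCm38.p6, and each window runs from 250 bases before to 50 bases after a start. The windows are given 5′ to 3′ on the strand of the gene. Capitals mark the octamer ATGCAAAT, bound by POU factors, the ETS core CCGGAA, the E-box CAGCTG and TATAAA, on either strand. These motifs were chosen after the sequences had been seen.
Upstream start, chr10:62527396-62527695, minus strand: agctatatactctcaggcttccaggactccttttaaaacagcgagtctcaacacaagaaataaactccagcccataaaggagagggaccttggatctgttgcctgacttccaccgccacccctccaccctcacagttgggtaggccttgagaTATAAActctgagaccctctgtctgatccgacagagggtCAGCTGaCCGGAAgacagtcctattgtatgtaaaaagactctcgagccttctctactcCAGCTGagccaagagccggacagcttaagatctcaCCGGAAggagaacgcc
Downstream start, chr10:62507708-62508007, minus strand: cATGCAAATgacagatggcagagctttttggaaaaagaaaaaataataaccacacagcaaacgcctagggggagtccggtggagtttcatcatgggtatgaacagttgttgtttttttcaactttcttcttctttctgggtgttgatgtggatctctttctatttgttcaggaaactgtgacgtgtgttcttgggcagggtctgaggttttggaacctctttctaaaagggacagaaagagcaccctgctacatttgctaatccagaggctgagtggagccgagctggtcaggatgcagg
The upstream window held 2 ETS cores, 2 E-boxes and 1 TATAAA, and the downstream window 1 octamer and none of the others. Of 32851 promoter windows of 300 bases in the same table, 14.9% held the ETS core, 16.3% the E-box, 13.6% TATAAA and 1.74% the octamer. A match is a match of letters, and whether a probe of the array tells the starts apart was not analysed.

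Both Srgn probes are annotated to the same gene, on chromosome 10, and where each probe lies on its transcripts was not analysed here. Probe ILMN_2722732 had log2 signals of 8.32 at 100 nM and 8.71 at 0.01 mM of TMD, against 9.36 and 9.31 with PMT and 9.16 and 9.25 with CPM. Both TMD arrays lay below all 4 others, as they did for 7.33% of all probes, while they lay above all 4 for 7.86%. The log2 difference was -0.76 ± 0.128 (SE, 2 arrays against 4), or 1.69-fold lower after TMD, and passed the test with an adjusted p of 0.0327 (limma, Benjamini-Hochberg over 19140 probes). The difference is that of 1 probe and was not shown for the gene as a whole. In RNA of whole EBs, fewer cells with the RNA this probe reads and less of it per cell cannot be told apart.

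Probe ILMN_2751527, the brighter Srgn probe and therefore the 1 that stands for the gene, had log2 signals of 9.44 and 9.67 with TMD, against 9.60 and 9.68 with PMT and 9.34 and 9.40 with CPM. The TMD arrays lay inside the range of the others. The log2 difference was 0.051 ± 0.13, with a 95% interval of -0.21 to 0.32 and an adjusted p of 1 in limma. The interval of the other probe, -1.02 to -0.50, does not overlap it. That probe had the smallest p of this comparison, and its interval makes no allowance for having been picked. Setting the intervals side by side is therefore a description and not a test of a difference between the probes.

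**Figure D1:**
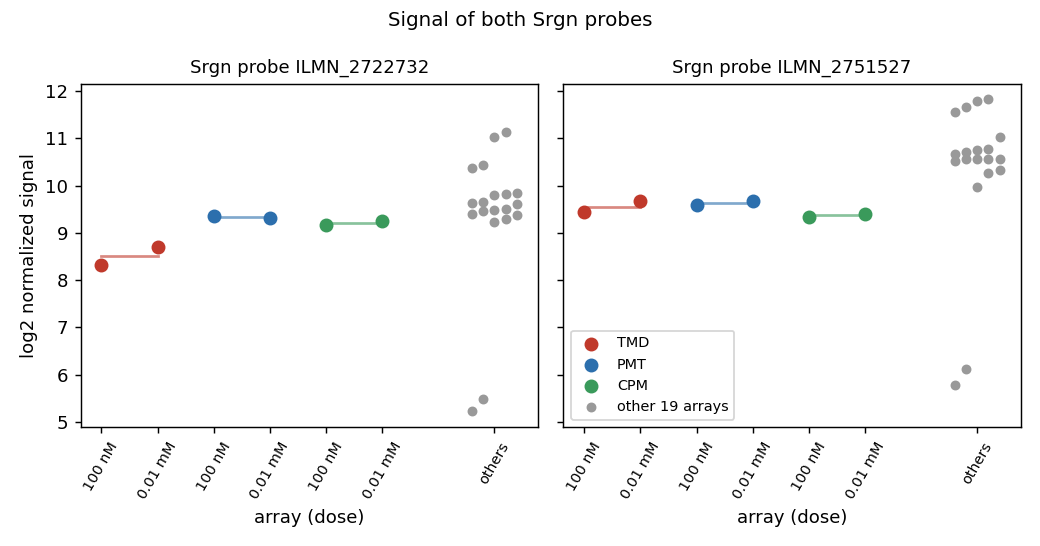
Log2 normalized signal of the 2 Srgn probes, 1 panel each, on the arrays of TMD (red), PMT (blue) and CPM (green) at 100 nM and 0.01 mM, with a line at the mean of each chemical and the 19 arrays of the other conditions in grey. In the left panel the TMD arrays, at 8.32 and 8.71, sit below the PMT and CPM arrays, and in the right panel, at 9.44 and 9.67, they sit among them.

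The difference in the first probe was larger at the lower dose, -0.94 at 100 nM and -0.57 at 0.01 mM when each TMD array was set against the PMT and CPM arrays of its dose. Whether the doses differ was tested as an interaction, and for this probe the adjusted p was 1. Against each chemical alone the probe was lower by the same order, -0.82 against PMT (adjusted p 0.0862) and -0.69 against CPM (adjusted p 0.217, limma), and neither comparison passed. An exact permutation test of the single value, over the 15 ways to draw 2 of 6 arrays, gave a two-sided p of 0.0667, the smallest it allows, so this design cannot reach 0.05 by that route. The probe had been picked for its difference between these same arrays, so its exact p is not separate support. The other Srgn probe, ILMN_2751527, gave an exact permutation p of 0.6.

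The call depended on single arrays and on the setting. Without the TMD array at 100 nM the log2 difference was -0.56 with an adjusted p of 1. It was also not called without the PMT array at 100 nM (adjusted p 0.243), the CPM array at 100 nM (0.0569) or the CPM array at 0.01 mM (0.14), all in limma. When all kept probes of the gene were averaged, the difference was -0.35 with an adjusted p of 1.

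Within an array, the log2 signal of probe ILMN_2722732 minus that of ILMN_2751527 was -1.12 and -0.96 with TMD, against -0.24 and -0.37 with PMT and -0.19 and -0.15 with CPM. This value contains how well each probe binds, and only its change between arrays can be read. Probe ILMN_2722732 was not detected on the arrays of BPA (bisphenol A), with detection p-values of 0.0972 and 0.0438, so these were left out, and the other 17 arrays lay between -1.74 and -0.51 with a median of -1. The TMD values lie inside that range, and all 4 values of PMT and CPM lie above it. The exact permutation p of TMD against PMT and CPM was 0.0667, the smallest possible. It contains the signal of the probe that was picked for its difference between these arrays, so it is not a second, separate test.

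Over the whole study, probe ILMN_2722732 ranged over the other 19 arrays up to 11.14 with a median of 9.61, and the 2 arrays below TMD were those of BPA, where it was not detected. By mean log2 signal, TMD at 8.51 was lowest of the conditions in which the probe was detected. CPM followed at 9.20, PCB (a hydroxylated polychlorinated biphenyl) at 9.32 and PMT at 9.34, and the doses of PCB, at 9.39 and 9.24, spanned most of that range. The single DMSO array was at 9.61, and MPA (methoprene acid) was highest at 11.09. By the other probe, CPM at 9.37, TMD at 9.56 and PMT at 9.64 were the lowest conditions other than BPA, below the DMSO array at 10.71. On the BPA arrays this probe was at 6.12, where it was detected, and at 5.77, where it was not (detection p 0.0107). Thus the 3 chemicals stood together at the low end of that probe, while by the first probe TMD stood below PMT and CPM.

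The probes had a Pearson r of 0.961 over the 25 arrays, 0.844 over the 23 arrays without BPA, and 0.101 over the 6 arrays of TMD, PMT and CPM. These points share the normalization of 1 set of arrays, and both arrays of 1 chemical are related. The genes most like probe ILMN_2722732 over the 25 arrays were Cubn (r = 0.964), an endocytic receptor of visceral endoderm, Glipr1 (0.962), Ctsh (0.956), a lysosomal cathepsin, Tex261 (0.952) and Tfpi (0.952), an inhibitor of blood clotting. Without BPA their r was 0.818 to 0.907. Most like the other probe were Ttr (0.979), a transport protein of visceral endoderm, Ctsh, Tfpi, Hkdc1 and Tex261. Between TMD and the mean of PMT and CPM these genes differed by -0.292 (Cubn) to 0.237 (Hkdc1), and none passed the test (adjusted p 1, limma).

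Over all probes, the comparison of TMD with PMT and CPM called 0 of 19140 probes as higher (0%) and 1 as lower (0.00522%), the Srgn probe, in limma at an adjusted p under 0.05. An unadjusted p under 0.05 was reached by 716 probes (3.74%), 334 of them higher (1.75%) and 382 lower (2%). Of the log2 differences, 97.5% were smaller than 0.5 in either direction, and their median was 0.00485. The differences between TMD and the other chemicals were thus small for nearly all probes.

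Against each chemical alone no probe was called, with 650 probes (3.4%) at an unadjusted p under 0.05 against PMT and 699 (3.65%) against CPM. The same test of PMT against TMD and CPM, and of CPM against TMD and PMT, called 0 probes each, with 547 (2.86%) and 645 (3.37%) probes at an unadjusted p under 0.05. These comparisons share all 6 arrays. For the dose difference of TMD against that of PMT and CPM, 0 probes were called and 342 (1.79%) had an unadjusted p under 0.05, all in limma.

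**Figure D2:**
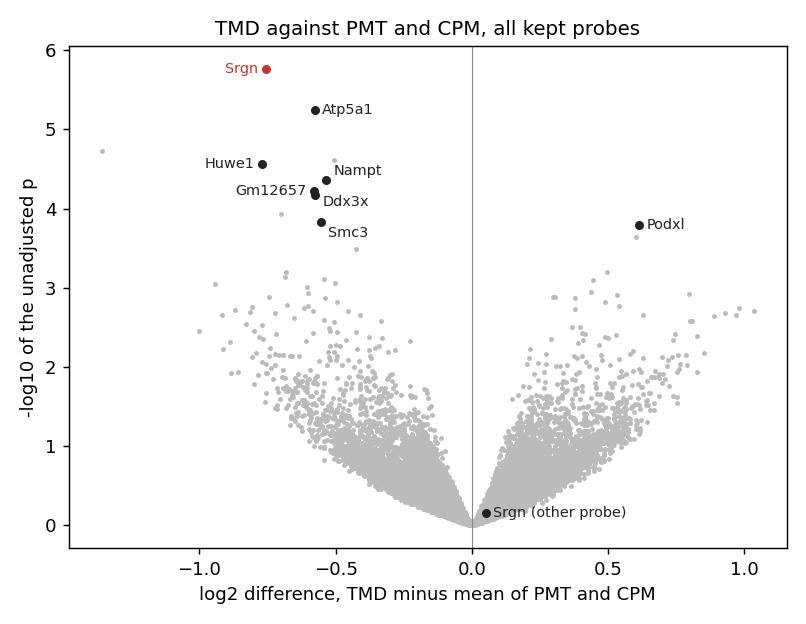
Log2 difference of TMD minus the mean of PMT and CPM (x axis) against the -log10 of the unadjusted p (y axis) for the 19140 kept probes, with genes of the smallest p named. The called Srgn probe (red) is at -0.76, Atp5a1 follows at -0.58, and the other Srgn probe is at 0.051 near the foot of the plot.

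The SD of the log2 difference between the doses of TMD was 0.273, between those of PMT 0.311 and between those of CPM 0.308, against 0.295 to 0.316 between arrays of different chemicals. The TMD arrays were thus the most alike of the 15 pairs, while the doses of PMT and of CPM lay as far apart as arrays of different chemicals. Between 15530 and 16038 probes were detected per array. The identity of the cells was checked with defining markers: Pou5f1, Nanog, Sox2, Zfp42 and Dppa5a were detected on all 6 arrays.

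Below the called probe, no gene passed when each gene was represented by its brightest kept probe, so the genes with the smallest p among those whose groups did not overlap are given as values. Groups without overlap are common here: of 10656 genes, 812 (7.62%) had both TMD arrays above all 4 others and 791 (7.42%) had both below. Nearest to the threshold among them was Atp5a1, the alpha subunit of mitochondrial ATP synthase. Its log2 signal was 11.13 and 11.15 with TMD, against 11.89 and 11.60 with PMT and 11.58 and 11.80 with CPM. The log2 difference was -0.58 ± 0.105, with an adjusted p of 0.0542 in limma, and a dimmer probe of the gene differed by -0.003.

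Huwe1, a HECT-type ubiquitin ligase, had log2 signals of 8.48 and 8.45 with TMD, against 9.07 and 9.12 with PMT and 9.61 and 9.14 with CPM. Its log2 difference of -0.77 had an adjusted p of 0.103, and its dimmer probe differed by -0.218. Nampt, the rate-limiting enzyme of NAD salvage, had 9.30 and 9.32 with TMD, against 9.94 and 9.76 with PMT and 9.76 and 9.90 with CPM. Its log2 difference was -0.53 (adjusted p 0.138), and its dimmer probe differed by -0.318. In each of these genes both TMD arrays agreed within 0.03 and lay below the others, and the dimmer probe gave a smaller difference of the same sign.

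Ddx3x, an X-linked RNA helicase that acts in translation, had nearly the same difference by both of its probes. Its brighter probe had log2 signals of 10.20 and 10.09 with TMD, against 10.96 and 10.56 with PMT and 10.61 and 10.74 with CPM, a difference of -0.57. Its dimmer probe had 8.21 and 8.19 with TMD, against 8.97 and 8.62 with PMT and 8.72 and 8.89 with CPM, a difference of -0.60. The adjusted p-values of the probes were 0.159 and 0.846 in limma.

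The remaining genes on the lower side had log2 differences of -0.425 to -0.743 and adjusted p-values of 0.159 to 0.846. They were the predicted gene Gm12657 (-0.58), Smc3 (-0.55), the cohesin subunit that holds sister chromatids together, Ptges3 (-0.425), the p23 cochaperone of Hsp90, Trmt6 (-0.54), a subunit of a tRNA methyltransferase, Ankrd17 (-0.743) and Kpna3 (-0.49), an importin that carries proteins into the nucleus. The dimmer probes of Ankrd17 went the other way, at 0.02 and 0.315. A probe of Tuba1a, an alpha-tubulin, and a probe without a symbol were also among the smallest p-values, with Tuba1a at -0.505 by its dimmer and -0.328 by its brighter probe.

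On the higher side the smallest p belonged to Podxl, podocalyxin, a heavily sialylated surface protein of pluripotent and epithelial cells. Its log2 signal was 9.33 and 9.15 with TMD, against 8.95 and 8.54 with PMT and 8.64 and 8.38 with CPM. The log2 difference was 0.61 ± 0.142, with an adjusted p of 0.277 in limma. The other genes named on this side had adjusted p-values of 0.846 or more.

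Chd1, a chromatin remodeler of open chromatin in mESCs, had log2 signals of 10.45 and 10.26 with TMD, against 9.96 and 10.15 with PMT and 10.07 and 9.61 with CPM. Its log2 difference was 0.41, and its dimmer probes differed by 0.397, 0.122 and -0.038. Uba3, the catalytic subunit of the enzyme that activates Nedd8 and so the cullin ligases, had 9.49 and 9.32 with TMD, against 8.81 and 8.81 with PMT and 8.79 and 9.26 with CPM, a difference of 0.49. Dcaf1, a substrate receptor of the same Ddb1 and cullin scaffold that cereblon uses, had 10.87 and 10.86 with TMD, against 10.44 and 10.33 with PMT and 10.50 and 10.67 with CPM, a difference of 0.38. None of these passed, with adjusted p-values of 0.846 for Uba3 and Dcaf1 and 1 for Chd1.

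Tcn2 (0.63), which carries vitamin B12 in blood, ND5 (0.53), a subunit of respiratory complex I encoded in the mitochondrial genome, and Tmem248 (0.30) had an adjusted p of 0.846 each. Ero1b, an oxidase of the endoplasmic reticulum, and Rhpn1 were detected on 1 of the 2 TMD arrays and on none of the 4 PMT and CPM arrays. Against the lowest detected signal the TMD mean was 1.08-fold higher for Ero1b and 1.18-fold for Rhpn1, with adjusted p-values of 0.903 and 1 in limma. Each mean includes a TMD array on which the gene was not detected, so these values are not lower bounds. For Ero1b the TMD array at 100 nM, at log2 5.73, lay below the lowest detected signals of 5.83 to 5.94. Tma16 was detected on 2 of the 25 arrays, both of TMD, and was kept only through them, so its difference is not given. The dimmer probes of Rhpn1 differed by 0.406 and -0.116.

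**Figure D3:**
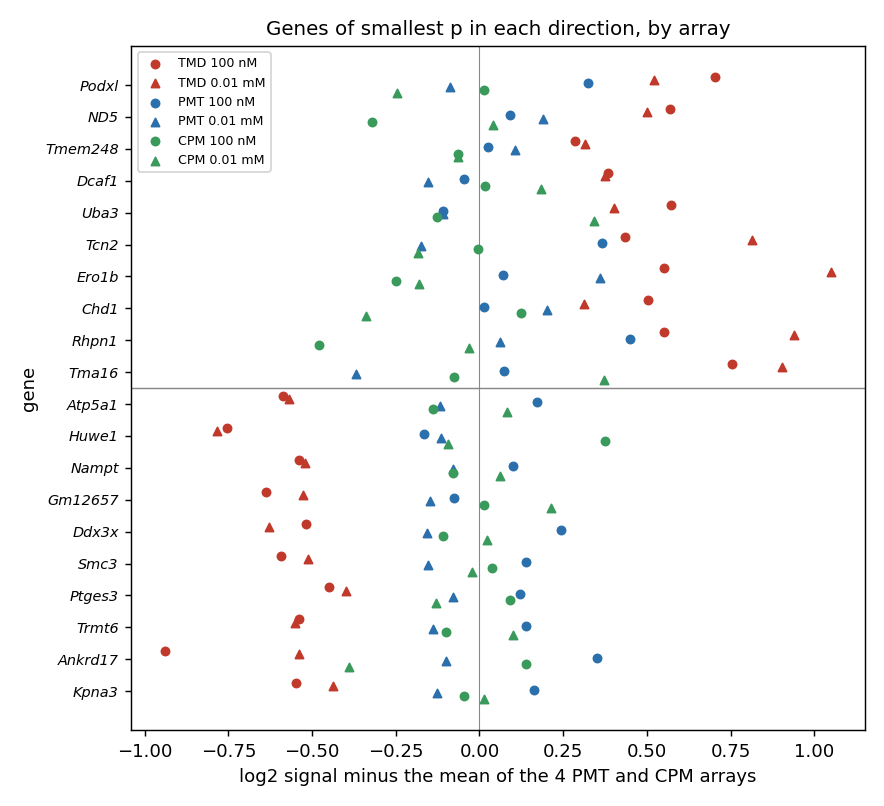
Log2 signal of each gene on each array minus the mean of its 4 PMT and CPM arrays, for the 10 genes of smallest p on the higher side (top) and the 10 on the lower side (bottom), with TMD in red, PMT in blue and CPM in green and circles for 100 nM and triangles for 0.01 mM. The TMD arrays of each gene lie outside the range of the other 4 by the rule that chose the genes, and none of the 20 genes passed the test. Ero1b, Rhpn1 and Tma16 were detected on none of the 4 PMT and CPM arrays, and Tma16 was kept only through TMD. The distances shown for them are not measured differences.

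How far probes of 1 gene agree was described over the 2396 genes with at least 2 probes detected on all 25 arrays. The differences of the brightest and the next probe had a Pearson r of 0.135 across these genes, which are not independent replicates, and 55.1% had the same sign. Among the 45 with an unadjusted p under 0.05 by the brightest probe, 34 (75.6%) had the same sign in the next probe and 6 also had a p under 0.05 there. These 6 were Chd1 and Zfp106, higher with TMD, and Ddx3x, Lmnb1 (lamin B1, of the nuclear envelope), Psmc2 (a proteasome ATPase) and Tuba1a, lower with TMD. None had an adjusted p under 0.05.

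The target pathways were followed next. Crbn had log2 signals of 7.03 and 6.99 with TMD, against 6.45 and 7.04 with PMT and 6.37 and 6.76 with CPM. The groups overlapped, and the log2 difference was 0.355 with a 95% interval of -0.13 to 0.84. It was 0.21 without the PMT array at 100 nM and 0.5 without the PMT array at 0.01 mM. The dimmer Crbn probe differed by 0.102. Ddb1, the adaptor that holds cereblon, had 9.92 and 10.09 with TMD, against 9.92 and 9.76 with PMT and 10.08 and 9.45 with CPM, a difference of 0.201 (-0.14 to 0.54). It was 0.044 without the CPM array at 0.01 mM and 0.36 without the CPM array at 100 nM. Of 10 genes of the cereblon ligase and its cullin scaffold, 9 were kept, 0 were called in either direction, and the median log2 difference was -0.017, against 0.002 over all genes.

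Of 11 genes known as targets that cereblon drugs send to the ligase or as its own substrates, 8 were kept and 0 were called, with a median of -0.004. Sall4, a zinc finger factor of mESCs whose human protein is degraded with thalidomide, had log2 signals of 13.15 and 13.10 with TMD, against 12.96 and 13.05 with PMT and 12.99 and 13 with CPM, a difference of 0.123 in its RNA. Meis2, a homeobox factor reported to be a natural substrate, differed by -0.335 with an unadjusted p of 0.0184 and an adjusted p of 1, and its groups overlapped. The arrays measure RNA and not the proteins on which the ligase acts.

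In the hedgehog pathway the comparison sets a Smo inhibitor on the other side. Ptch1, the receptor and a target of the pathway, had log2 signals of 8.30 and 8.20 with TMD, against 8.35 and 8.10 with PMT and 8.51 and 8.14 with CPM. The difference was -0.025 (95% interval -0.34 to 0.29), and against CPM alone it was -0.07. Smo had 8.21 and 8.26 with TMD, against 8.31 and 8.29 with PMT and 8.33 and 8.31 with CPM, a difference of -0.076 (-0.39 to 0.24), and its dimmer probes differed by -0.059 and 0.05. Gli1, the target most often used to read the pathway, was not detected on any of the 25 arrays. Of 17 genes of the pathway, 11 were kept and 0 were called, with a median of -0.025. Hhat, which attaches palmitate to hedgehog ligands, had the largest difference of the list, -0.659, with an unadjusted p of 0.0203 and an adjusted p of 1, and was detected on none of the TMD arrays and 1 of the 4 others.

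Thalidomide is also known as an inhibitor of vessel growth. Of 18 vascular genes, 11 were kept and 0 were called, with a median of -0.114. Pecam1, an adhesion protein of endothelium that mESCs also make, had log2 signals of 7.66 and 7.49 with TMD, against 7.91 and 8.04 with PMT and 8.08 and 8.27 with CPM. Both TMD arrays lay below the others, and the difference of -0.50 had an unadjusted p of 0.00822 and an adjusted p of 1. Vegfa differed by -0.216 and its receptor Flt1 by -0.258, while Tek, the angiopoietin receptor, differed by 0.429.

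Serglycin was also read beside the genes of its own kind. Of 24 proteoglycan core proteins, 20 were kept and 0 were called by their brightest probe, with a median of 0.012. The 11 detected on all 6 arrays ranged from -0.296 (Hspg2, perlecan) to 0.13 (Sdc4, a syndecan). Of 24 enzymes that build glycosaminoglycan chains, 18 were kept and 0 were called, with a median of 0.032. A list of 18 genes held Srgn itself and granule and secretory proteins that serglycin can pack, and 4 were kept. Beside Srgn these were Prf1, perforin, at 0.026, Plat, tissue plasminogen activator, at 0.01, and Mmp9 at -0.284. No member of these lists other than the 1 Srgn probe passed.

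Cell types that make serglycin were read by their markers. Of 16 blood cell genes, 7 were kept and 0 were called, and the defining markers Ptprc, Spi1, Lyz2, Tyrobp and Gata1 did not reach the detection minimum. The summed signal of the kept blood genes was 4804 to 4965 with TMD and 4695 to 4908 with PMT and CPM. Only 3 of the 7 were detected on all 6 arrays. Most of the sum came from Laptm5, at log2 11.71 and 11.58 with TMD, 11.63 and 11.65 with PMT and 11.55 and 11.58 with CPM. The sum therefore mainly follows that gene and is not a measure of blood cells. Of 15 genes of parietal endoderm and basement membrane, 15 were kept and 0 were called by their brightest probe, with a sum of 20629 to 22262 with TMD and 18801 to 23686 with PMT and CPM. Visceral endoderm, 13 of 18 genes kept and 0 called, summed to 12089 to 12887 with TMD and 11833 to 13066 with PMT and CPM. These ranges overlap.

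Feeder fibroblast genes, 13 of 19 kept and 0 called, summed to 4921 to 5020 with TMD and to 4581 to 4903 with PMT and CPM, which do not overlap. The sums of 8 of the 34 lists described here did not overlap, with TMD above the others in 2 and below them in 6. Among single genes, by their brightest probe, 7.62% had both TMD arrays above all PMT and CPM arrays and 7.42% had both below. The sums share the same arrays and normalization, so the lists are not separate tests. No direction is read from their count. Of the defining markers of feeder fibroblasts, Col1a1 and Col1a2 were detected on none of the 6 arrays, while Col3a1 and Postn were not kept. The median log2 difference of the 13 kept feeder genes was 0.045. Their part in the result was not tested.

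The markers of pluripotent cells were read next. Pou5f1 had log2 signals of 13.13 and 12.99 with TMD, against 13.04 and 13.20 with PMT and 13.29 and 13.20 with CPM, a difference of -0.122 (95% interval -0.31 to 0.06). Nanog differed by -0.126 (-0.39 to 0.14). The Sox2 probes went in opposite directions, at 0.202 (-0.04 to 0.45) for the brighter and -0.532 (-0.92 to -0.14) for the dimmer probe, each without overlap between the groups and each with an adjusted p of 1. Of 20 pluripotency genes, 19 were kept and 0 were called, with a median of -0.026. Their summed signal was 94606 to 96514 with TMD, below the 97309 to 99438 with PMT and CPM. The largest part of it was Dppa5a, at log2 15.64 and 15.65 with TMD, 15.76 and 15.72 with PMT and 15.72 and 15.65 with CPM. With each array scaled to its 75th percentile the list median was 0.0208, so no direction is read from this list.

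Of 14 genes of the primed epiblast, 11 were kept and 0 were called. Fgf5, a growth factor that marks this state, had log2 signals of 9.46 and 9.41 with TMD, against 8.86 and 9.16 with PMT and 9.24 and 9.07 with CPM, a difference of 0.349 with an unadjusted p of 0.0197. Lefty1, an inhibitor of Nodal, differed by -0.227 with an unadjusted p of 0.0227. Both had an adjusted p of 1 in limma. Of the early neural genes, 7 of 16 were kept and 0 called, with Gbx2 at -0.197 and an unadjusted p of 0.0462. Their sum was 5089 to 5223 with TMD, below the 5448 to 6214 with PMT and CPM. Most of it came from Gbx2, at log2 12.05 and 12.13 with TMD, 12.35 and 12.39 with PMT and 12.22 and 12.19 with CPM. The sum therefore mainly repeats the difference of that gene.

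Stress and growth genes gave no call either. Hspa5, the main chaperone of the endoplasmic reticulum, differed by -0.557, Slc3a2, a subunit of amino acid transporters and a target of ATF4, by -0.572, Adm, adrenomedullin, by 0.456 and Pcna, the clamp of DNA replication, by -0.514. Their unadjusted p-values lay between 0.0281 and 0.0447 and their adjusted p-values were 1. These genes were picked from their lists after the values were seen. The list medians were -0.038 for endoplasmic reticulum chaperones, 0 for ATF4 targets, 0.02 for hypoxia and glycolysis and -0.019 for the cell cycle. Of 55 cytosolic ribosomal proteins, 50 were kept, 0 were called, and the median was -0.016, with 19 genes above 0 and 31 below. The gene set that the study assembled for autism, which is not independent of the study's interest in TMD, had 11 of 18 genes kept, 0 called and a median of -0.126, which was -0.0758 with each array scaled to its 75th percentile. In it Fmr1, the fragile X gene, differed by -0.064, Rarb, a retinoic acid receptor, by -0.387, and Rara, another, by 0.317. Rarb was detected on none of the TMD arrays and on all 4 others, and Rara on 1 of the 2 TMD arrays and 1 of the 4 others.

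Over all 34 lists, 467 genes were kept and 0 were called. An unadjusted p under 0.05 was reached by 18 of them (3.85%), against 339 of all 10656 genes (3.18%). The medians lay between -0.126 and 0.116, 18 below 0 and 16 at 0 or above. With each array scaled to its 75th percentile in place of quantile normalization, the medians of 9 lists changed sign. Among them were those of the cereblon ligase, its substrates, pluripotency and the ribosomal proteins. The direction of these medians depends on the scaling and is not read. The sums and counts given above for such lists were taken with quantile normalization.

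**Figure D4:**
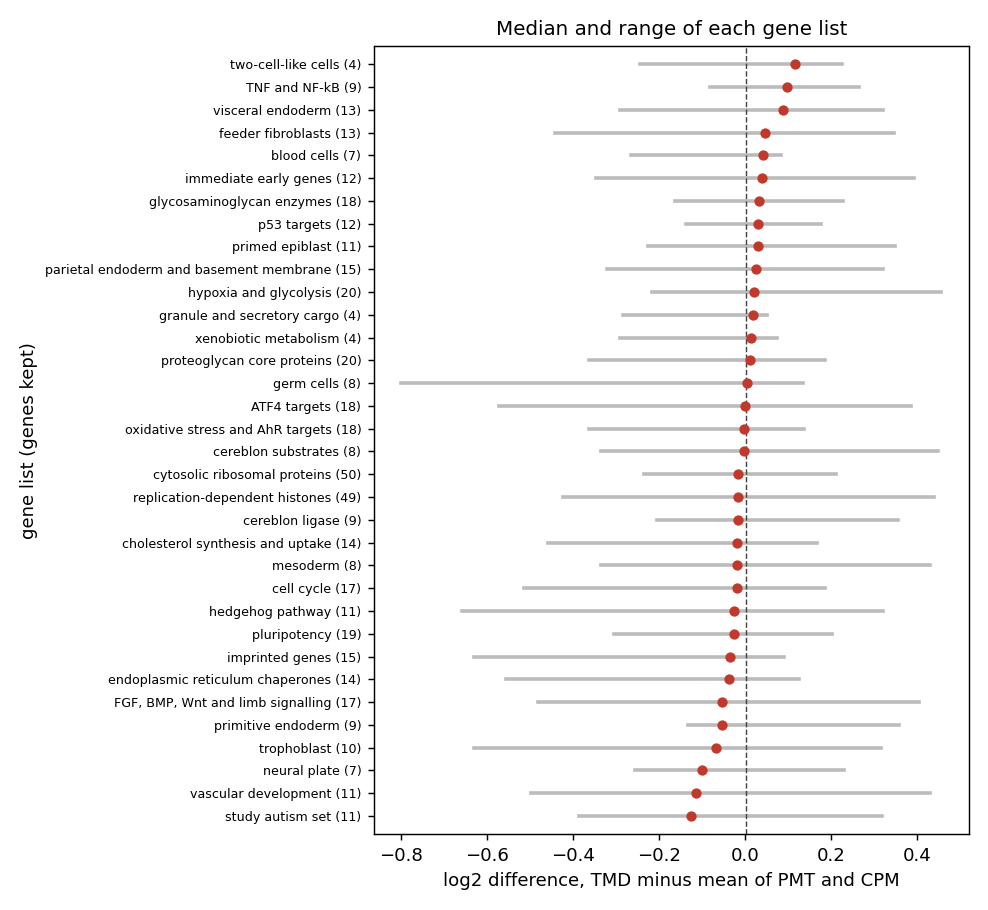
Median (red point) and range (grey line) of the log2 difference of TMD minus the mean of PMT and CPM over the kept genes of each of 34 gene lists, with the number of kept genes in parentheses and a dashed line at the median of all genes, 0.002. The medians lie between -0.126 and 0.116, and no gene of a list passed the test by its brightest probe.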

How the data were processed

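Total RNA of EBs was hybridized to 25 arrays. The intensity values, 1 signal per probe and array, were deposited by the authors without normalization but after background subtraction, with 32.1% to 33.8% of the signals of the 6 arrays below 0. Beside each signal the authors deposited a detection p-value. Their GeneSpring-normalized intensity table served as an alternative. The scanner software is not given in the sources used here.

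Background was corrected with nec of limma 3.58.1 in R 4.3.3 (offset 16, from the detection p-values), and the 25 arrays were quantile-normalized before log2 was taken. The fit took 19140 of 45281 probes, those whose detection p was under 0.01 on 2 or more arrays. Each chemical was a group of 2 arrays and DMSO of 1 in lmFit and eBayes with a trend. There were 12 residual degrees of freedom and 18 from the prior, which draws on the other probes. The p-values were adjusted over the 19140 probes by Benjamini-Hochberg, with 0.05 as the threshold. Intervals are 95% intervals of this fit. The number of arrays limits the precision, and no array was left out. The methods name triplicate experiments, while the labels give 1 array per condition.

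Probe symbols came from the platform annotation: 34885 probes had 1 symbol, 18 several and 10378 none, and 34807 were matched to RefSeq by gene identifier. The brightest kept probe stood for a gene, and its dimmer probes are given where their sign differed. Named genes are Srgn, the 10 genes per direction with the smallest p among those without overlap between groups (since fewer passed), 8 genes of the targets and the cells, and the 5 genes most correlated with each Srgn probe. Other list members were named after their values were seen. The members and lists were chosen with earlier results of these data known. For Ero1b and Rhpn1 the fold values use, per PMT or CPM array, the higher of the gene's own signal and the lowest signal among detected probes. The TMD signals were taken as they were. The fit was tested on simulated data. Alternatives covered background, scaling, filter, arrays in the fit, variance model, the authors' table, dose level as a term, the t-test of the methods, the mean of all probes and leaving out each array.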

Additional observations from a re-analysis of the deposited data

How the results depend on the processing

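The Srgn probe ILMN_2722732 stayed lower with TMD under all 17 alternatives run and passed the threshold in 7 of them. It was not called without the nec background (-0.78, adjusted p 0.0976), with 75th percentile scaling (-0.74, 0.0583), without a filter (-0.76, 0.0621), without a trend in eBayes (-0.76, 0.383), by the methods' t-test after Benjamini-Hochberg (-0.76, 0.733) or as the mean of the probes (-0.35, 1). Leaving out single arrays gave -0.95 to -0.56 (adjusted p 0.0152 to 1); a lone TMD array is then assumed to vary like the other groups. The other Srgn probe was at -0.067 without the TMD array at 0.01 mM and at -0.35 as the mean of the probes. Leaving out single arrays gave it -0.067 to 0.17.

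The count of probes lower than in PMT and CPM was 0 without nec, with 75th percentile scaling, without a filter, without trend and by the t-test after adjustment, 2 with 18 arrays, 3 with dose level as a term and 8 with the 6 arrays alone. It was 0 to 3 without single arrays. Against PMT it was 1 with 18 arrays, 2 with dose level and 0 to 2 without single arrays. Against CPM, 1 probe was higher with 18 arrays and with the authors' table, 1 was lower by the t-test after adjustment, and 0 to 1 were lower without single arrays. The unadjusted t-test of the methods gave 572 higher and 593 lower probes, 567 and 506 against PMT, and 600 and 539 against CPM.

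Atp5a1 passed under 4 alternatives and Huwe1 and Gm12657 under 1 each. Ptch1 was at 0.022, 0.037 and 0.068 without the TMD array at 0.01 mM, the PMT array at 100 nM and the CPM array at 100 nM (-0.12 to 0.068 over all single arrays), and Sox2 at -0.16 as the mean of its probes. Leaving out single arrays gave Nanog -0.22 (without the TMD array at 0.01 mM) to -0.029 (without that at 100 nM) and Pou5f1 -0.19 (without the TMD array at 100 nM) to -0.053 (without that at 0.01 mM). The medians of 12 of 34 lists moved by more than the spread between doses with 75th percentile scaling, which put the median of all probes at 0.0345. The cause of these changes was not tested. No paired analysis was possible because the numbers of the labels are doses, and dose level as a term stands in for it. A chip as a block was not run, as no chip is named in the headers used here. Signal over background limits the dim genes, and with 2 arrays against 4 only differences well above the spread between doses could pass.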
